A study of Homo sapiens with 6 samples.

Results

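Fibrillar collagens are the collagens that pack into the striated fibrils of connective tissue. The 10 genes described here encode chains of types I, II, III, V, XI, XXIV and XXVII. They were picked by gene symbol from the 22701 genes of an RNA sequencing table of LX-2 cells, with earlier results of these data known. LX-2 is an established line of human hepatic stellate cells. Every library was made from cells that received TGF-β, at a labelled dose of 5 µg/mL; 3 received nothing else (the TGF-β libraries), and 3 also received 20 µM ligustilide, a phthalide written LIG (the LIG libraries). The design thus asks what LIG does to transcripts while TGF-β is present. Cells without TGF-β were not analysed here, so nothing below measures a response to TGF-β itself. No duration is labelled, nor are the replicates of a group described as separate cultures, so p-values reflect the spread among the libraries, which may be technical.

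Type I collagen is normally a heterotrimer of a pair of α1 chains (COL1A1) and a single α2 chain (COL1A2), and it can also form as a homotrimer of α1 chains. Type III is a homotrimer of COL3A1 chains that is co-assembled with type I, and type V, built mainly from COL5A1 and COL5A2, starts fibrils and limits their width. Activated stellate cells are the main source of types I and III in the scarred liver, and TGF-β is a standard inducer of these genes. Types II and XI are the fibrillar collagens of cartilage, and types XXIV and XXVII are less abundant members with short helices.

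Between 38401783 and 39260090 fragments per library lie behind the values, which are FPKM (fragments scaled by gene length and library size) and so can be compared between genes. The first principal component (55.1% of the variance of log2(FPKM + 1)) separated 2 libraries, TGF-β replicate 2 and LIG replicate 3, from the remaining 4. Summed FPKM was also highest in these libraries, at 348518 and 362034 against 324022 to 328949 in the rest. The 11 measured stellate cell and myofibroblast markers summed to 2190 to 2460 FPKM with TGF-β and 2180 to 2590 FPKM with LIG, mostly VIM; TAGLN averaged 318.3 and 270.6 FPKM, ACTA2 only 2.77 and 2.97 FPKM, and DES, GFAP and RELN were below 1 FPKM throughout. Of the 8 tested, 0 passed in limma or voom, where 74 and 77 of all 10695 genes tested passed. At an unadjusted p under 0.05, PDGFRB (4.99 and 3.32 FPKM) and TAGLN were lower and TIMP1 (125.8 and 152.4 FPKM) higher with LIG. Over all genes tested, 4.21% were lower and 4.20% higher at that p. The groups of each were apart, but narrowly for TIMP1 (136 and 138 FPKM) and TAGLN (305 and 298 FPKM). Of all genes tested, 6.73% were apart as lower and 9.07% as higher. Summed markers of other liver cells reached at most 0.652 FPKM (endothelial), 4.89 FPKM (hepatocyte, mostly SERPINA1), 13.9 FPKM (cholangiocyte, mostly SOX9) and 16.2 FPKM (macrophage and leukocyte, mostly CD68). Of 8 hepatocyte markers, 4 were measured, and 3 of these were below 1 FPKM in each library. Cartilage markers summed to 29.7 to 30.8 FPKM with TGF-β and 26.6 to 27.3 FPKM with LIG, nearly all of it from MATN3 and SOX9, with 7 of 9 measured genes below 1 FPKM in each library; the part of the cell makeup in the results was not tested.

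The 10 genes ranged from some of the most abundant transcripts of these cells to a gene listed at 0 in all libraries but 1. COL1A1 was the 54th most abundant gene of the table, COL5A2 the 363rd and COL5A1 the 457th by mean FPKM. COL27A1 and COL3A1 followed in the teens of FPKM, COL1A2 and COL5A3 were near 1 to 7 FPKM, COL2A1 stayed below 0.5 FPKM, and COL11A1 and COL24A1 rested on 10 fragments or fewer in each library. Of the 10, 7 had a mean of at least 1 FPKM and were tested; COL2A1, COL11A1 and COL24A1 were not. COL5A3 was tested only because of its level in the TGF-β libraries (1.21 FPKM, against 0.895 FPKM with LIG), so counts and medians over the 7 tested genes are descriptions.

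RefSeq promoter sequences (GRCh38.p14) were at hand for COL5A1, COL5A3, COL11A1, COL24A1 and COL27A1. To set chains of very different abundance side by side, the 250 bases before the start site are shown for the abundant COL5A1 (chr9:134641553-134641802, plus strand), COL27A1 (chr9:114155287-114155536, plus strand), the scarce COL5A3 (chr19:10010505-10010754, minus strand) and COL11A1 (chr1:103108523-103108772, minus strand), 5′ to 3′ along the gene. The gene positions given below are from GENCODE, whose start sites can differ from those of RefSeq. By these positions the COL5A1 window ends inside the gene, and the COL11A1 window lies wholly inside it. Capitals mark GC boxes (GGGCGG or its complement CCGCCC) and CCAAT boxes (CCAAT or ATTGG).
COL5A1: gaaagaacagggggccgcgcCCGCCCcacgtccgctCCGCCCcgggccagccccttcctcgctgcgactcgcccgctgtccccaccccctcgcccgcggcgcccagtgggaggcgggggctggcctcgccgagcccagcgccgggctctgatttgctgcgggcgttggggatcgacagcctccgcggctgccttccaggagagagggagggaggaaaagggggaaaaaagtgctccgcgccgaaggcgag
COL27A1: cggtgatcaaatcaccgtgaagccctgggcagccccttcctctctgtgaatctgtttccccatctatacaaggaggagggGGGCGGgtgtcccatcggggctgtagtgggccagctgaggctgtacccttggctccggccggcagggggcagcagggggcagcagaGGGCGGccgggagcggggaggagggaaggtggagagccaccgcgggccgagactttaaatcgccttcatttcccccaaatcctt
COL5A3: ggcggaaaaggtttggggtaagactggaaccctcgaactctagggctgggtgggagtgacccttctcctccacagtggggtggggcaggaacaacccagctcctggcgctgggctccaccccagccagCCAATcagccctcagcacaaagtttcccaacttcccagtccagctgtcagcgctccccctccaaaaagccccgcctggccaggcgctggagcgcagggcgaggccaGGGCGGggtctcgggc
COL11A1: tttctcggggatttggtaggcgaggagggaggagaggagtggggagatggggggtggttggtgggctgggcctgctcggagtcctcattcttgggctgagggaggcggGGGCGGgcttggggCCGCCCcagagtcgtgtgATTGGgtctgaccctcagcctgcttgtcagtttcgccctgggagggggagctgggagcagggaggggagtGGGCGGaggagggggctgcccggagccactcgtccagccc
COL5A1 held 2 GC boxes, COL27A1 held 2, COL5A3 held 1 and COL11A1 held 3, while the CCAAT box was found once in COL5A3 and once in COL11A1. Among all 35116 promoter entries of the same length, 42.6% held a GC box and 32.0% a CCAAT box. The COL5A1 window also had 29 CpG dinucleotides, against 13 in COL27A1, 10 in COL5A3, 11 in COL11A1 and a median of 11 over all entries. None of the 4 windows held TATAAA or CAGACA on either strand, which 10.7% and 13.6% of entries did. Among these 4 genes, the window with the most GC boxes belonged to the least abundant. The still scarcer COL24A1 is not shown, and its 2 promoter entries held 0 and 1 GC boxes, with 16 CpG dinucleotides each.

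**Figure D1:**
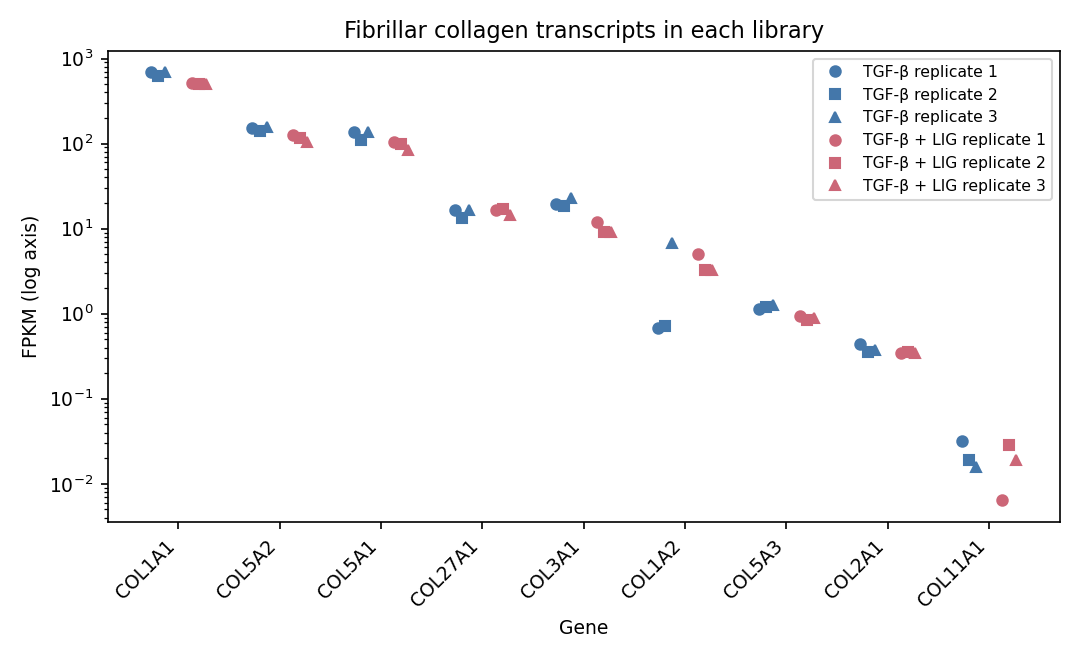
FPKM of 9 fibrillar collagen genes (x axis, ordered by mean level) in each library on a log axis, with TGF-β libraries in blue, LIG libraries in red and a symbol for each replicate. COL1A1 lies between 496 and 691 FPKM, COL1A2 has 2 TGF-β libraries near 0.7 FPKM far below the other 4, and COL24A1, listed at 0 in 5 libraries, is not drawn.

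With LIG, COL3A1 fell to 0.491 times its mean with TGF-β alone, and 4 other genes of types I and V were lower in every LIG library without passing the test. COL1A2 and COL27A1 did not share this direction. In all, 1 of the 7 tested genes passed as lower and 0 as higher (limma on log2(FPKM + 1), Benjamini-Hochberg adjusted p under 0.05 over 10695 genes), where 0.505% of all genes tested passed as lower and 0.187% as higher. Of the 7, 5 had a log2 change below 0 (39.1% of all genes tested), 5 had a 95% interval below 0 (4.21%), 5 had non-overlapping groups in the lower direction (6.73%) and 0 in the higher direction (9.07%). No fibrillar collagen gene was higher at an unadjusted p under 0.05 in limma. On recovered fragments, voom called 1 of the 7, COL3A1 as lower. It called 56 of all 10695 genes as lower and 21 as higher. The median log2 change of the 7 was -0.38, beside 0.03 for all genes tested. As the RNA came from whole cultures, fewer cells of a type and less RNA per cell cannot be told apart.

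COL1A1 (chromosome 17, 50183289 to 50201632) encodes the α1 chain of type I collagen. In order of replicate number, as for all values below, it measured 687, 618 and 691 FPKM under TGF-β alone and 515, 496 and 498 FPKM under TGF-β plus LIG. The highest LIG library was thus below the lowest TGF-β library. Its mean was 24.4% lower with LIG, a log2 change of -0.40 ± 0.08 (SE; 95% interval -0.60 to -0.21), which did not pass (limma adjusted p = 0.118). In the 2 groups COL1A1 alone took between 0.295% and 0.41% of all fragments of a library. Without TGF-β replicate 2 and LIG replicate 3, the libraries that stand apart, the change was -0.45 and passed (adjusted p = 0.000466). These libraries were picked with the data known, and leaving them out keeps 2 per group. With libraries left out singly, COL1A1 passed in 0 of 6 fits (limma adjusted p from 0.0852 to 0.667).

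COL1A2 (chromosome 7, 94394561 to 94431232) encodes the partner α2 chain, yet was far scarcer. TGF-β replicates 1 and 2 had 0.675 and 0.708 FPKM, while TGF-β replicate 3 had 6.73 FPKM, 9.73 times their mean. The LIG libraries had 5.08, 3.28 and 3.24 FPKM. So a single TGF-β library was the highest of all 6, and the other TGF-β libraries were the lowest. These values rest on 132, 140 and 1320 fragments with TGF-β and on 995, 639 and 645 with LIG. The exact Poisson 95% intervals of TGF-β replicates 1 and 2 (0.565 to 0.80 and 0.595 to 0.835 FPKM) are set beside that of replicate 3 (6.37 to 7.10 FPKM); they cover counting error only. The 2 low intervals overlapped each other and neither reached that of replicate 3.

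The spread of COL1A2 among the TGF-β libraries was 1.90 (SD of log2 FPKM), and 2 of 10695 genes, itself included, were at least as variable there. Genes with a mean within a factor of 2 of its own had a median SD of 0.11. With LIG its SD was 0.37. The fitted log2 change of 0.77 ± 0.53 had an interval from -0.45 to 1.99 and missed the threshold (limma adjusted p = 0.802). With TGF-β replicate 3 left out, it was 1.5 and passed as higher (adjusted p = 0.0449), so this library decides the call. The direction also turned, to -0.34, when libraries were weighted by their quality (adjusted p = 0.597).

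COL3A1 (chromosome 2, 188974320 to 189012746), the chain of type III collagen, was at 19.7, 18.2 and 22.9 FPKM in the TGF-β libraries. With LIG it was at 11.8, 9.04 and 9.04 FPKM. The groups were well apart, and the mean was 50.9% lower with LIG. This log2 change of -0.96 ± 0.12 (SE; 95% interval -1.23 to -0.69) passed (limma adjusted p = 0.0144) and was the 4th largest fall of the 10695 genes. Leaving out TGF-β replicate 1, TGF-β replicate 3 or LIG replicate 2 ended the call (adjusted p = 0.0669, 0.0772 and 0.0569), with the change between -1.08 and -0.87 over the 6 such fits. It passed in 15 of 19 alternative fits. An exon of the microRNA gene MIR3606 lies on the same strand within COL3A1.

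COL2A1, the chain of cartilage type II collagen (chromosome 12, 47972965 to 48004554), measured 0.438, 0.359 and 0.371 FPKM under TGF-β alone and 0.345, 0.352 and 0.348 FPKM under TGF-β plus LIG. All 6 libraries held 79 to 100 fragments of it. The LIG libraries were lower, but the nearest libraries of the groups were almost level (0.359 and 0.352 FPKM), and the gene was below the level set for testing.

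COL5A1 (chromosome 9, 134641774 to 134844843), which encodes the α1 chain of type V, was at 138, 109 and 136 FPKM in the TGF-β libraries. The LIG libraries had 103, 98.0 and 84.1 FPKM. The gap between the groups was small, and TGF-β replicate 2 and LIG replicate 3 were each the lowest of their group. Its log2 change of -0.42 ± 0.11 (SE; 95% interval -0.68 to -0.16) did not pass (limma adjusted p = 0.264). Without these libraries it was -0.45 (adjusted p = 0.000483). With libraries left out singly, the change passed in 0 of 6 fits (limma adjusted p from 0.169 to 0.871).

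COL5A2 (chromosome 2, 189031896 to 189225312), the α2 chain of type V, had 152, 142 and 155 FPKM with TGF-β. It had 125, 115 and 104 FPKM with LIG. Here too the groups were apart and the libraries that stand apart were the lowest of each. The log2 change was -0.38 ± 0.08 (SE; 95% interval -0.58 to -0.19) and did not pass (limma adjusted p = 0.135; 0.00334 without these libraries). With libraries left out singly, the change passed in 0 of 6 fits (limma adjusted p from 0.101 to 0.665). COL5A2 lies 19149 bases from COL3A1, on the opposite strand with the 3′ ends facing each other.

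COL5A3 (chromosome 19, 9959561 to 10010471), another type V chain that replaces α1 in some trimers, was at 1.15, 1.20 and 1.27 FPKM with TGF-β. With LIG its values were 0.942, 0.844 and 0.899 FPKM, all below the TGF-β libraries. Its log2 change of -0.22 ± 0.06 (limma adjusted p = 0.295) understates the change of so low a gene, whose mean FPKM was 25.8% lower. On recovered fragments (limma voom) the log2 change was -0.43 (adjusted p = 0.205). Exons of AC008742.1 overlap it on the opposite strand, and whether counting used strand is not given in the sources used here.

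COL11A1 (chromosome 1, 102876467 to 103108872), the α1 chain of cartilage type XI, had 10, 6 and 5 fragments with TGF-β and 2, 9 and 6 with LIG. The groups overlapped, and no difference was detectable at this depth. COL24A1 (chromosome 1, 85729233 to 86156943) had 1 fragment in TGF-β replicate 3 and 0 elsewhere. A count of 0 allows up to 3 fragments (a one-sided limit, unlike the two-sided intervals given for COL1A2), or 0.00828 to 0.00846 FPKM in these libraries.

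COL27A1 (chromosome 9, 114155560 to 114312511), of type XXVII, was at 16.5, 13.5 and 16.6 FPKM with TGF-β. It was at 16.6, 17.2 and 14.5 FPKM with LIG, so the groups overlapped, and again TGF-β replicate 2 and LIG replicate 3 were the lowest of their groups. The log2 change was 0.05 ± 0.10 (SE), with a 95% interval of -0.18 to 0.28 (limma adjusted p = 0.965). The sign turned, to -0.04, once TGF-β replicate 2 was left out. In order of mean level it stood next to COL3A1 (15.8 and 15.1 FPKM over all libraries), above it in each LIG library and below it in each TGF-β library.

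**Figure D2:**
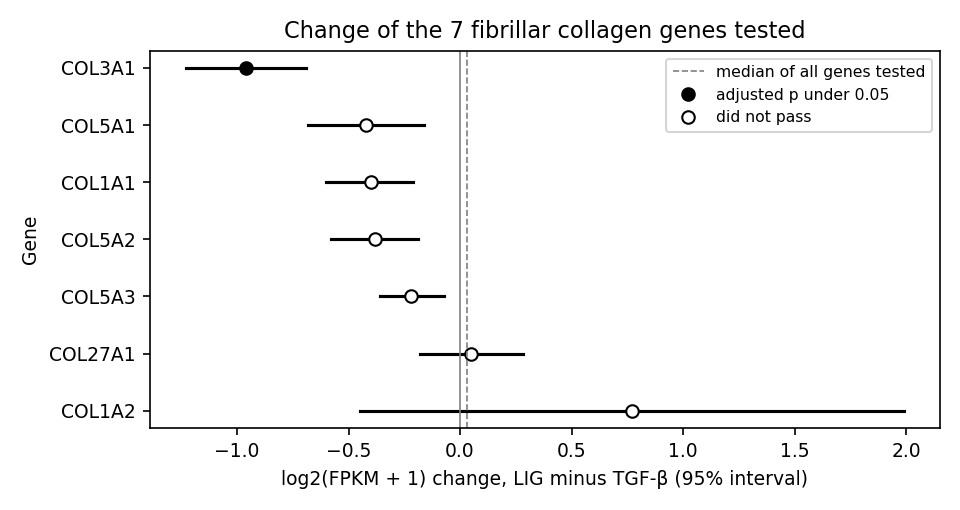
Log2(FPKM + 1) change, LIG minus TGF-β, of the 7 tested genes (points) with 95% intervals from limma (lines); filled, adjusted p under 0.05; the dashed line is the median of all genes tested, 0.03. COL3A1 at -0.96 is the one filled point, 4 genes lie between -0.42 and -0.22, and COL1A2 has the widest interval, -0.45 to 1.99.

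TGF-β replicate 2 was the lowest of its group for 5 of the 7 tested genes, and LIG replicate 3 for 4 of 7. With both left out, COL1A1, COL3A1, COL5A1 and COL5A2 passed as lower, where 2.70% of genes tested did. With library quality weights these 4 and COL5A3 passed, where 7.24% of all genes did. COL1A1, COL5A1, COL5A2 and COL5A3 passed in none of the other alternative fits. The part of these libraries in the results was not tested beyond leaving them out.

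Chain stoichiometry was examined at the RNA level, as ratios of transcripts within each library, where scaling between libraries cancels. The type I transcripts were far from the proportion of chains in the protein heterotrimer, in which α1 outnumbers α2 by a small factor. Proportions of the protein chains were not measured. COL1A1 exceeded COL1A2 by 1018 and 873 times in TGF-β replicates 1 and 2, and by 103 times in TGF-β replicate 3. In the LIG libraries the ratio was 101, 151 and 154. TGF-β replicate 3 thus sat with the LIG libraries. The log2 ratio was 8.81 ± 1.85 (SD, n = 3) with TGF-β and 7.06 ± 0.34 with LIG (exact permutation p = 0.3; 0.84 adjusted over 6 ratios). With 3 against 3 libraries this two-sided test cannot give a p below 0.1, so none of the 6 ratios could pass.

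The 2 main type V chains were of like abundance in every library. COL5A1 was 0.912, 0.768 and 0.877 times COL5A2 in the TGF-β libraries and 0.826, 0.853 and 0.805 times in the LIG libraries. The log2 ratio was -0.23 ± 0.13 and -0.27 ± 0.04 (SD, n = 3; exact permutation p = 0.7). COL5A3 was between 0.00734 and 0.0086 times COL5A2 in all 6 libraries, a log2 difference of -0.04 between the groups (exact permutation p = 0.7). COL5A1 was between 0.169 and 0.202 times COL1A1, with a log2 difference of -0.02 (exact permutation p = 0.7). COL11A1 was at most 0.000294 times COL5A1, which rests on its few fragments (exact permutation p = 0.9).

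Type III relative to type I was the ratio whose groups did not overlap. COL3A1 was 0.0287, 0.0295 and 0.0332 times COL1A1 with TGF-β. With LIG it was 0.0229, 0.0182 and 0.0182 times COL1A1. The log2 ratio went from -5.04 ± 0.11 to -5.67 ± 0.19 (SD, n = 3), a difference of -0.63 at the smallest p this test can give (exact permutation p = 0.1; 0.6 adjusted over the 6 ratios). Leaving out any library kept the difference between -0.74 and -0.57.

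**Figure D3:**
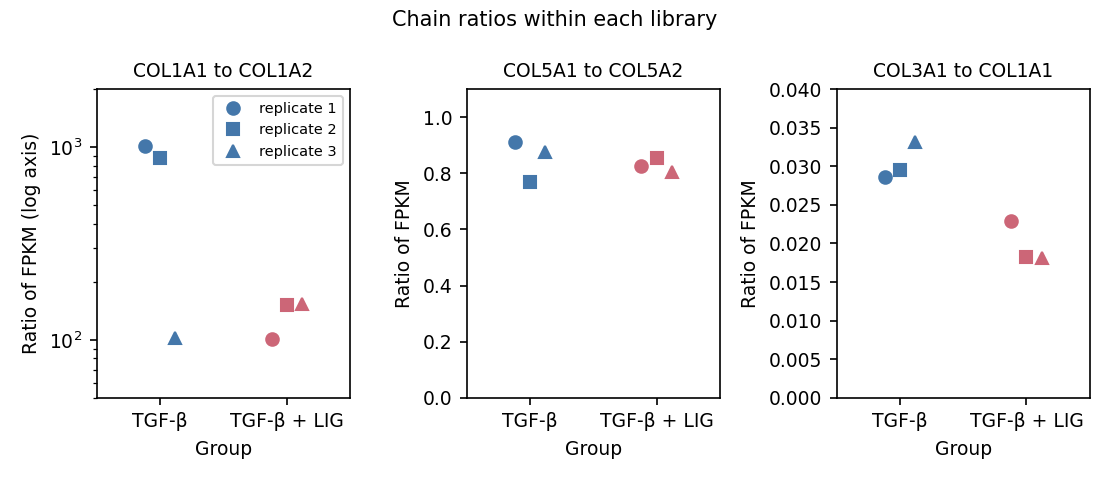
Ratio of FPKM of 2 chains within each library, by group, with a symbol for each replicate; the left axis is logarithmic and the others start at 0. COL1A1 to COL1A2 is 873 and 1018 in 2 TGF-β libraries and 101 to 154 in the other 4, COL5A1 to COL5A2 stays between 0.768 and 0.912, and COL3A1 to COL1A1 is lower in each LIG library.

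Summed over the 10 genes, fibrillar collagen was at 1016, 904 and 1030 FPKM in the TGF-β libraries and at 778, 740 and 714 FPKM in the LIG libraries. The group means were 983 ± 69.2 and 744 ± 32.1 FPKM (SD, n = 3), a ratio of 0.757; COL1A1 supplies most of both sums. The make-up of the sum was nearly the same: COL1A1 gave 67.7 ± 0.66% with TGF-β and 67.6 ± 1.81% with LIG, COL5A2 15.3 ± 0.44% and 15.4 ± 0.73%, and COL5A1 13 ± 0.79% and 12.8 ± 0.85%. The shares whose groups lay apart included those of COL3A1, 2.06 ± 0.15% and 1.34 ± 0.16%, and of COL27A1, 1.58 ± 0.07% and 2.16 ± 0.15%. The FPKM of COL27A1 itself overlapped between the groups (means of 15.5 and 16.1 FPKM), so its share was larger of a smaller sum. No test was made on these shares.

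The genes most alike in pattern were sought by the root mean square difference, over the 6 libraries, of log2 FPKM centred on each gene's mean. For COL1A1 they were PPME1, MEIS1 and TRAF5, at 0.031, 0.031 and 0.049. For COL3A1 they were CPA4, IGFBP5 and AK4, at 0.132, 0.141 and 0.146. COL1A2 had no close match: C1S, which encodes a complement protease, BEST1, an anion channel gene, and CTSK, which encodes the collagen-degrading cathepsin K, were nearest at 0.762, 0.862 and 0.968. C1S measured 1.38, 1.62 and 4.06 FPKM under TGF-β alone and 3.84, 2.55 and 2.42 FPKM under TGF-β plus LIG. CTSK measured 2.98, 3.31 and 6.11 FPKM and 4.73, 4.54 and 5.05 FPKM. BEST1 measured 0.464, 0.729 and 1.4 FPKM and 1.01, 1.09 and 1.45 FPKM, so that its highest value was in LIG replicate 3 and not in TGF-β replicate 3. These genes were selected for likeness to COL1A2 over the same 6 libraries, so a shared order is no finding.

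Genes around the fibrillar collagens were followed along the path from gene to fibril, using the same fit, in which 0.505% of all genes tested passed as lower and 0.187% as higher. At an unadjusted p under 0.05, 4.21% of all genes tested were lower and 4.20% higher. Voom called 56 of the 10695 genes as lower and 21 as higher. Of 23 regulators of collagen transcription and mRNA tested, none passed in limma on log2(FPKM + 1) or in voom. At an unadjusted p under 0.05, 2 were lower and 1 higher, and the median log2 change was -0.02. CEBPB, a transcription factor gene, was at 26.0 ± 2.23 and 35.1 ± 4.89 FPKM (limma adjusted p = 0.231). CREB3L1, which encodes an activator of collagen genes in bone and fibroblasts, was at 40.9 ± 1.22 and 36.6 ± 1.90 FPKM (limma adjusted p = 0.566), and SOX9, a cartilage regulator, at 11.8 ± 0.13 and 10.1 ± 0.38 FPKM (0.328).

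Among 17 genes of procollagen modification and folding, 1 passed as lower and 16 did not pass, with a median log2 change of -0.05. At an unadjusted p under 0.05, 7 were lower and 1 higher. The 1 was P4HA1, a catalytic subunit of prolyl 4-hydroxylase, which stabilises the triple helix; it went from 34.3 ± 1.27 to 24.3 ± 0.68 FPKM (SD, n = 3; limma adjusted p = 0.0145). When libraries were left out singly, it passed in 1 of 6 fits (LIG replicate 3 left out), and the highest adjusted p was 0.132. P4HA2, which encodes another catalytic subunit, was at 58.05 ± 1.54 and 49.97 ± 2.12 FPKM, and the lysyl hydroxylase gene PLOD2 at 117.1 ± 0.64 and 99.7 ± 5.44 FPKM (limma adjusted p = 0.308 and 0.299). Of 13 procollagen export genes none passed in limma or voom (2 lower and 1 higher at an unadjusted p under 0.05). SEC23A and SEC24D, coat proteins of the vesicles that carry procollagen, were at 90.1 and 77.3 FPKM and at 49.3 and 42.3 FPKM. TRAPPC2, a tethering factor gene and the higher of the 3, was at 4.43 and 5.25 FPKM (limma adjusted p = 0.522).

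Outside the cell, 3 propeptide cleavage genes were tested and none passed in limma or voom, with 2 of them lower at an unadjusted p under 0.05. BMP1, the procollagen C-proteinase, was at 28.2 ± 2.14 and 24.1 ± 0.64 FPKM (limma adjusted p = 0.399), and its relative TLL1 at 5.78 ± 0.37 and 4.13 ± 0.43 FPKM (0.111). Of 3 crosslinking genes, LOX fell, while LOXL1 (15.1 and 12.5 FPKM) and LOXL2 (169.2 and 148.4 FPKM) did not pass; all 3 were lower at an unadjusted p under 0.05. LOX, the lysyl oxidase that starts crosslinks, was at 31.55 ± 0.92 and 14.84 ± 1.20 FPKM (SD, n = 3), a log2 change of -1.04 (limma adjusted p = 0.00185) that passed in all 19 alternative fits. LOX overlaps exons of SRFBP1 on the opposite strand.

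Of 5 tested genes of the fibril surface and fibril assembly, SPARC and THBS2 passed as lower and COL12A1, COL16A1 and FN1 did not pass; the median log2 change was -0.41, and 3 were lower at an unadjusted p under 0.05. SPARC, which binds collagen outside the cell, went from 506.5 ± 2.89 to 368 ± 13.9 FPKM, and THBS2 from 37.0 ± 0.54 to 26.6 ± 2.37 FPKM (SD, n = 3; limma adjusted p = 0.0435 for both). When libraries were left out singly, each passed in 1 of 6 fits (LIG replicate 3 left out); the highest adjusted p were 0.324 and 0.264. Over all 19 alternatives SPARC passed in 10 and THBS2 in 11. Besides fits with a library left out, both missed with no filter on low values (limma adjusted p = 0.155 and 0.136). Both also missed with replicate number as a block (0.361 and 0.2). SPARC missed too with quantile normalization (0.0679) and robust fitting (0.0577), and THBS2 when rescaled to TPM (0.144). Decorin (DCN) and lumican (LUM), small proteoglycans that coat collagen fibrils, were too low on average to be tested, and were singled out after their values were seen. DCN measured 0.122, 0.131 and 1.43 FPKM under TGF-β alone and 1.05, 0.711 and 0.594 FPKM under TGF-β plus LIG. LUM measured 0.233, 0.0576 and 0.90 FPKM and 0.494, 0.448 and 0.582 FPKM. Both, like COL1A2, were highest in TGF-β replicate 3 and lowest in the other TGF-β libraries, here on 6 to 390 fragments per library.

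None of 6 collagen receptor genes passed in limma or voom, and 2 were lower at an unadjusted p under 0.05. ITGA1, the collagen-binding integrin α1 gene, was at 8.68 ± 0.57 and 6.49 ± 1.12 FPKM (limma adjusted p = 0.324). The collagen receptor kinase genes DDR1 and DDR2 were at 5.65 and 4.94 FPKM and at 5.37 and 4.52 FPKM. ITGA2, the integrin α2 gene and the 1 receptor gene with a log2 change above 0, was at 36.5 and 45.4 FPKM (limma adjusted p = 0.749). Of 11 genes of collagen degradation and its inhibitors, 1 passed as lower and 10 did not pass, with a median log2 change of 0.09; at an unadjusted p under 0.05, 1 was lower and 4 higher. TIMP3, an inhibitor of metalloproteinases held in the matrix, fell from 86.1 ± 0.79 to 56.6 ± 1.65 FPKM (SD, n = 3; limma adjusted p = 0.00552), and its call ended when TGF-β replicate 3 was left out (adjusted p = 0.066). The collagenase genes MMP1 and MMP14 were at 13.95 and 18.24 FPKM and at 56.1 and 65.1 FPKM (limma adjusted p = 0.457 and 0.328).

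**Figure D4:**
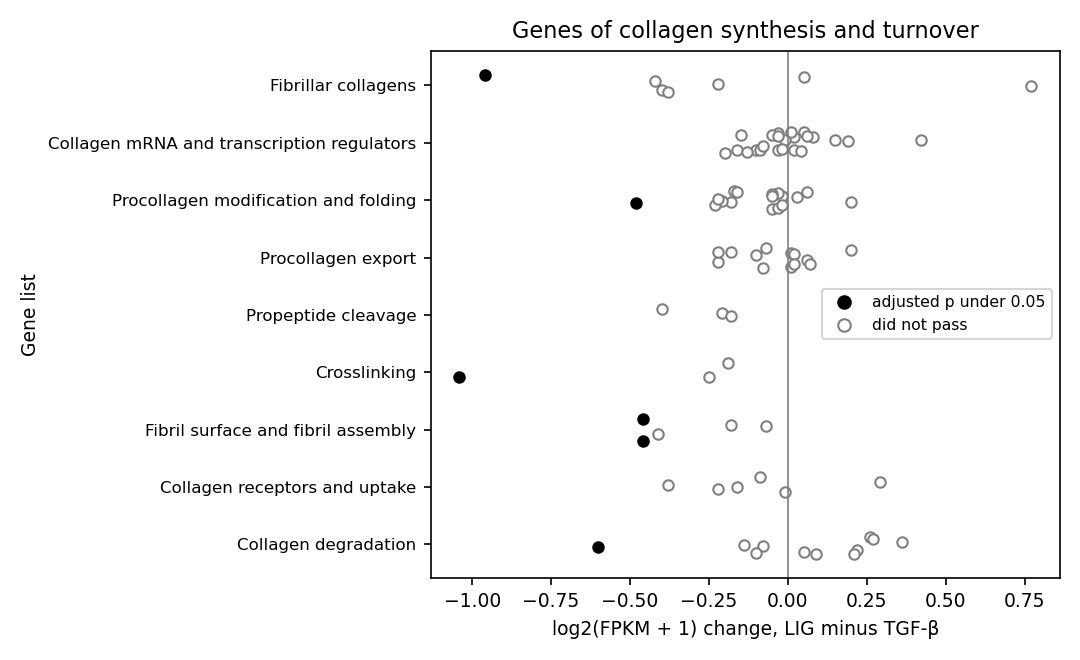
Log2(FPKM + 1) change, LIG minus TGF-β, of each tested gene (points) in 9 lists of collagen synthesis and turnover; filled, adjusted p under 0.05. The 6 filled points, COL3A1, P4HA1, LOX, SPARC, THBS2 and TIMP3, all lie below 0, and most regulators and export genes lie close to 0.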

How the data were processed

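Polyadenylated RNA of 6 LX-2 libraries was sequenced after TRIzol extraction, per the labels' protocols. The authors deposited FPKM values, with a column for each library. Software named, without roles, per the submitters' processing notes: HISAT2 2.1.0, fastp and DESeq2, with the build GRCh38.p13; the counter, annotation and use of strand are not given in the sources used here. The series text speaks of transfection, read here as addition to the medium.

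All 114123 values above 0 were whole multiples of a step per gene within 0.01 fragments, which gave the fragment numbers and totals. These served for depth, Poisson intervals and voom. Genes with a mean of at least 1 FPKM (10695) entered limma 3.58.1 on log2(FPKM + 1) (group only, trend, two-sided, 4 residual and 4.1 prior degrees of freedom), Benjamini-Hochberg adjusted at 0.05. This scale understates changes of low genes. Chain ratios had no pseudocount and an exact two-sided permutation test. The fit was also run on simulated data, with independent noise at the typical spread of genes of similar level. The simulation set no libraries apart, so it cannot show how the fit behaves on these libraries. Gene positions are GENCODE 29 (GRCh38).

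Members, lists and alternatives were chosen with earlier results of these data known. Named genes are all members, the called genes of each list with up to 3 of the smallest adjusted p, and the 3 genes most like COL1A1, COL1A2 and COL3A1; others named in the lists were chosen after their values were seen. Computation used R 4.3.3 and Python 3.11.15 with scipy 1.17.1, pandas 2.3.3, matplotlib 3.10.9 and numpy 2.4.6.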

Additional observations from a re-analysis of the deposited data

How the results depend on the processing

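The number of genes called was 74, and 11 to 93 with a library left out, 14 with no filter on low values, 1891 with library quality weights and 498 without TGF-β replicate 2 and LIG replicate 3. The 1 fibrillar collagen gene called became 0 to 1 with a library left out, 0 with no filter, 5 with the weights and 4 without both libraries; without TGF-β replicate 3 the 1 called was COL1A2, as higher. The cause of these shifts was not tested. With the weights, COL1A2 (-0.34), C1S (-0.21), CTSK (-0.20) and BEST1 (-0.10) turned from higher to lower, and COL27A1 ranged from -0.04 (without TGF-β replicate 2) to 0.12 with a library left out; none of these passed. With a pseudocount of 1, the difference in log2 ratio between the groups turned to 0.17 for COL5A3 to COL5A2 and to 0.42 for COL11A1 to COL5A1. With a library left out, the difference ranged from -2.82 to -1.17 for COL1A1 to COL1A2, -0.11 to 0.01 for COL5A1 to COL5A2, -0.11 to 0.00 for COL5A3 to COL5A2, -0.08 to 0.06 for COL5A1 to COL1A1 and -0.51 to 0.62 for COL11A1 to COL5A1. The summed FPKM ratio stayed between 0.727 and 0.775. Deviations of same-numbered libraries from their group means correlated across genes at 0.47, -0.57 and -0.34. Those of TGF-β replicate 2 and LIG replicate 3 correlated at 0.68. Whether same-numbered libraries were handled as pairs is not labelled. These correlations cannot decide it, because the libraries that stand apart bear different numbers. With the replicate block, 22 genes were called, COL3A1 (adjusted p = 0.0376) and LOX (0.0176) passed, P4HA1 (0.135), SPARC (0.361), THBS2 (0.2) and TIMP3 (0.0651) did not, and the difference in the log2 ratio of COL3A1 to COL1A1 was -0.63. Depth limits COL11A1 and COL24A1, which held 10 fragments or fewer.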

Other observations

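Among the 10695 genes tested, 3 were at least 4 times higher in TGF-β replicate 3 than in both other TGF-β libraries. They were COL1A2, CD99 and VAMP7, a comparison chosen after the values of COL1A2 were seen. CD99 measured 0.77, 1.21 and 13.5 FPKM under TGF-β alone and 21.3, 1.48 and 6.54 FPKM under TGF-β plus LIG, in order of replicate number. VAMP7 measured 0.353, 0.621 and 2.68 FPKM and 0.313, 2.03 and 0.405 FPKM. Both lie in the pseudoautosomal regions shared by the X and Y chromosomes, and COL1A2 does not. Over the LIG libraries CD99, like COL1A2, was highest in replicate 1, and VAMP7 was highest in replicate 2. COL1A2 itself was nearly level in LIG replicates 2 and 3 (3.28 and 3.24 FPKM).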
